A study of Mus musculus with 32 samples.

Results

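The Slc2a family encodes the facilitative sugar carriers (GLUT proteins), and its members were followed here in brown adipose tissue of mice that lack ChREBP. Members were chosen by symbol: every probe whose gene name in the scanner output is Slc2a1, Slc2a3, Slc2a4, Slc2a6, Slc2a8, Slc2a9, Slc2a10, Slc2a12 or Slc2a13 and which also stands in the table of processed values. That gave 12 probes of 9 genes, among 37304 probes and 24521 genes by name in all. The arrays hold 18 probes for these genes, and the other 6 (of Slc2a3, Slc2a6, Slc2a9, Slc2a12 and Slc2a13) were well above background on 0 arrays, or on 1 array for a probe of Slc2a12, so they gave no value.

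The 32 one-colour arrays measured brown fat of male C57BL6/J mice, 8 per group, in 2 lines that each had their own WT group. The total ChREBP KO mice (Mlxipl-null) lack both ChREBP isoforms, and the ChREBPβ KO mice lack the isoform that starts at exon 1b of Mlxipl, removed by CRISPR/Cas9 editing of fertilised eggs. Both deletions affect every tissue, so a change in brown fat can come from loss of the factor elsewhere. All mice, WT included, ate a regular diet, fasted 24 h and were then refed for 18 h with food and water holding 20% glucose. Their age was not given in the sources used here.

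GLUT proteins let glucose and related sugars cross the plasma membrane down their gradient. Brown fat takes up much glucose after a meal, largely through GLUT4, which insulin moves from stored vesicles to the cell surface. Hexokinases then trap the sugar as glucose 6-phosphate, and sugar metabolites activate ChREBPα, which drives transcription of the shorter ChREBPβ. ChREBP binds DNA with Mlx at carbohydrate response elements, built from E-box-like elements on either side of a short spacer.

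The Mlxipl probe, for the gene that both deletions target, checked the labels. It read 15.98 to 16.33 in total-line WT and 13.49 to 13.91 in total ChREBP KO, and 16.15 to 16.55 in ChREBPβ-line WT and 14.68 to 14.99 in ChREBPβ KO, so that KO and WT did not overlap in either line (limma adjusted p = 2.02e-24 and 7.09e-17). On each array 64.4% to 71.1% of the spots were well above background. Tissue composition differed between the lines. The mean log2 intensity of 10 skeletal muscle genes was 12.94 to 16.13 in total-line WT and 14.33 to 15.86 in total ChREBP KO, but 5.71 to 11.97 in ChREBPβ-line WT and 5.80 to 11.33 in ChREBPβ KO. That of 8 liver genes ranged from 6.31 to 11.64 in the total line and from 6.46 to 13.54 in the ChREBPβ line. The 8 brown adipocyte genes, Ucp1 and Cidea among them, were well above background on every array, with means between 14.42 and 15.48, but 6 of them were called in total ChREBP KO (4 higher and 2 lower, among them Dio2 by 2.19 and Elovl3 by -3.16), and 6 between the WT groups. Over all genes 44.1% were called in total ChREBP KO (21.1% lower) and 38.9% between the WT groups. Of 5 endothelial genes 2 were lower in total ChREBP KO (mean 10.55 to 10.85 in WT and 10.35 to 10.64 in KO). The part of these genes' cells in the Slc2a changes was not tested.

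Total ChREBP deficiency moved most Slc2a probes, in both directions. Of the 12, 5 were higher and 4 lower in the KO mice at a limma adjusted p under 0.05, which is the rule for every call below. Over all probes tested, 43.2% were called in this contrast (22.7% higher and 20.5% lower). The median absolute change was 0.39 on the log2 scale for the 12 probes and 0.17 for all probes. In bulk tissue, fewer cells of a type and less RNA per cell cannot be told apart. In ChREBPβ KO 0 of the 12 probes were called by limma, with 1 at an unadjusted p under 0.05. Over all probes 2.55% were called in that contrast, so few calls were general there and not particular to the Slc2a probes. The difference between both KO effects, tested as such, was called for 8 of the 12 probes, against 24.1% of all probes.

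**Figure D1:**
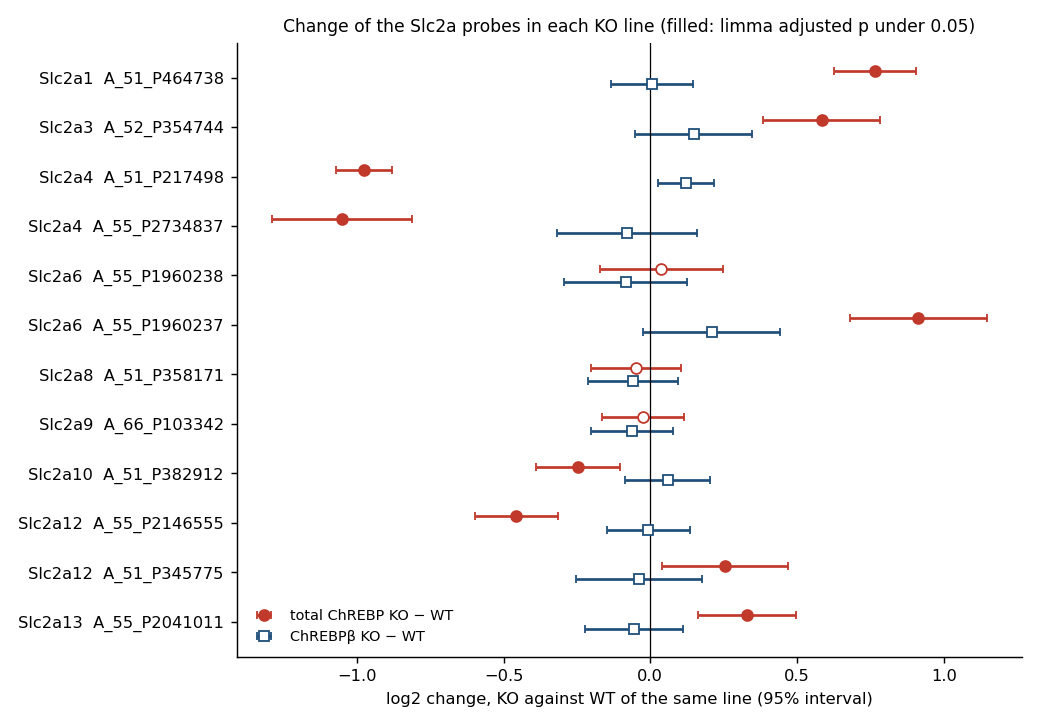
Log2 change (KO against WT of the same line, 8 arrays per group) of the 12 Slc2a probes with its 95% interval; circles are total ChREBP KO, squares ChREBPβ KO, and filled symbols passed a limma adjusted p of 0.05. In total ChREBP KO 9 probes passed, from -1.05 to 0.91, while the ChREBPβ KO values lay between -0.08 and 0.21 and none passed.

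Slc2a4, which encodes the insulin-responsive carrier GLUT4, was lower in total ChREBP KO. On its brighter probe, A_51_P217498 (mm9 chr11:69756073-69756132, minus strand), the 8 WT arrays lay between 16.42 and 16.63 with a median of 16.52, and the 8 KO arrays between 15.35 and 15.65 with a median of 15.56. The groups did not overlap, which was so for 15.6% of all probes in this contrast. The log2 change was -0.98 (SE 0.047, 1.97-fold lower, limma adjusted p = 1.83e-17). The other, dimmer probe, A_55_P2734837, matches the sequence of a cDNA clone of the locus (chr11:69757309-69757368). It read 9.59 to 10.13 in WT and 8.59 to 9.01 in KO, again without overlap, a log2 change of -1.05 (SE 0.12, limma adjusted p = 7.69e-09). Both probes gave a similar decrease.

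In the ChREBPβ line, the brighter Slc2a4 probe stood at 16.48 to 16.68 in WT (median 16.61) and at 16.54 to 16.83 in KO (median 16.74). The KO mean was 0.12 above WT (SE 0.047, 95% interval 0.02 to 0.22), 7 of 8 KO arrays were above the WT mean, and the limma adjusted p was 0.201. The other probe gave -0.08 (95% interval -0.32 to 0.16, limma adjusted p = 0.863). The KO effects differed by 1.097 on the brighter probe (SE 0.066, limma adjusted p = 3.43e-14) and by 0.97 on the other (limma adjusted p = 4.29e-05). In order of level, total ChREBP KO was lowest, and the 3 other groups differed from their neighbours by 0.07 and 0.12, neither of which was called.

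GLUT4 is also the carrier of skeletal muscle, so its level was set beside the muscle genes. Between the WT groups all 10 muscle genes were called, each lower in the ChREBPβ line. Slc2a4 differed there by 0.07 (SE 0.047, limma adjusted p = 0.259). In the total line, 0 of the 10 muscle genes were called between KO and WT by limma, and 0 had an unadjusted p under 0.05. With the means of the muscle and liver genes as covariates, the change of Slc2a4 (A_51_P217498) in total ChREBP KO was -0.97, and without the high-liver arrays (liver mean of 8 or more, a limit set after seeing the data) it was -0.96 (limma adjusted p = 1.44e-16 and 7.44e-08). The covariates did not include the brown adipocyte or endothelial genes. The part of muscle or other cells in the Slc2a4 change was not tested.

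**Figure D2:**
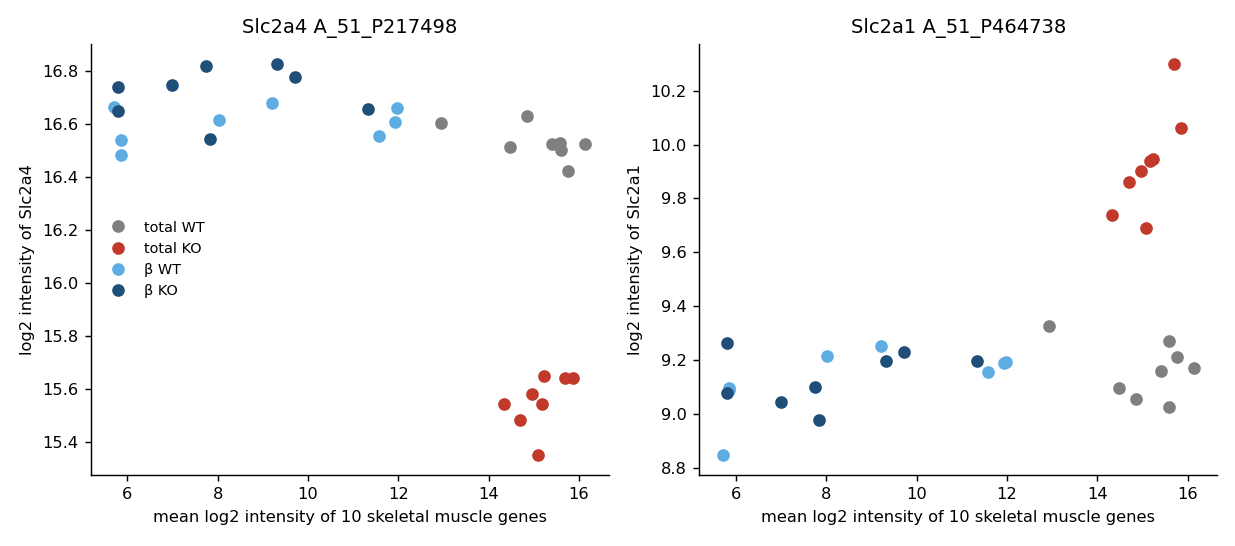
Log2 intensity of Slc2a4 (left) and Slc2a1 (right) on each of the 32 arrays against the mean log2 intensity of 10 skeletal muscle genes, coloured by group. Total ChREBP KO and total-line WT read 14.33 to 15.86 and 12.94 to 16.13 in muscle genes, and did not overlap in Slc2a4 or Slc2a1. The ChREBPβ-line groups spread from 5.71 to 11.97 in muscle genes, with Slc2a4 between 16.48 and 16.83.

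Slc2a1, coding for GLUT1, the carrier of basal, insulin-independent uptake, was higher in total ChREBP KO. Probe A_51_P464738 (mm9 chr4:118809864-118809923, plus strand) read 9.03 to 9.32 in WT (median 9.16) and 9.69 to 10.30 in KO (median 9.92). Every KO array lay above every WT array. The log2 change was 0.77 (SE 0.069, 1.70-fold, limma adjusted p = 7.11e-11). In the ChREBPβ line the WT arrays read 8.85 to 9.25 and the KO arrays 8.98 to 9.26, a change of 0.01 (95% interval -0.13 to 0.15, limma adjusted p = 0.988). These 3 groups overlapped throughout, and the KO effects differed by -0.76 (SE 0.097, limma adjusted p = 3.80e-07).

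Slc2a3, coding for GLUT3, a high-affinity carrier best known from neurons, was dimmer and moved the same way. Probe A_52_P354744 (mm9 chr6:122678075-122678134) read 6.07 to 6.74 in total-line WT and 6.88 to 7.17 in total ChREBP KO, again with no overlap. Its log2 change was 0.58 (SE 0.098, limma adjusted p = 1.07e-05). In the ChREBPβ line it read 5.99 to 6.61 in WT and 6.09 to 6.72 in KO, a change of 0.15 (95% interval -0.05 to 0.35, limma adjusted p = 0.575), and the KO effects differed by -0.44 (limma adjusted p = 0.0199). Leukocytes and nerve also hold GLUT3. In the same contrast, where 44.1% of all genes were called, of 6 leukocyte genes 1 was higher and 3 were lower (mean 9.47 to 9.93 in WT and 9.27 to 9.68 in KO), and of 5 nerve genes 2 were higher and 1 was lower (8.52 to 9.42 and 9.16 to 9.66). Their part in the Slc2a3 difference was not tested.

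**Figure D3:**
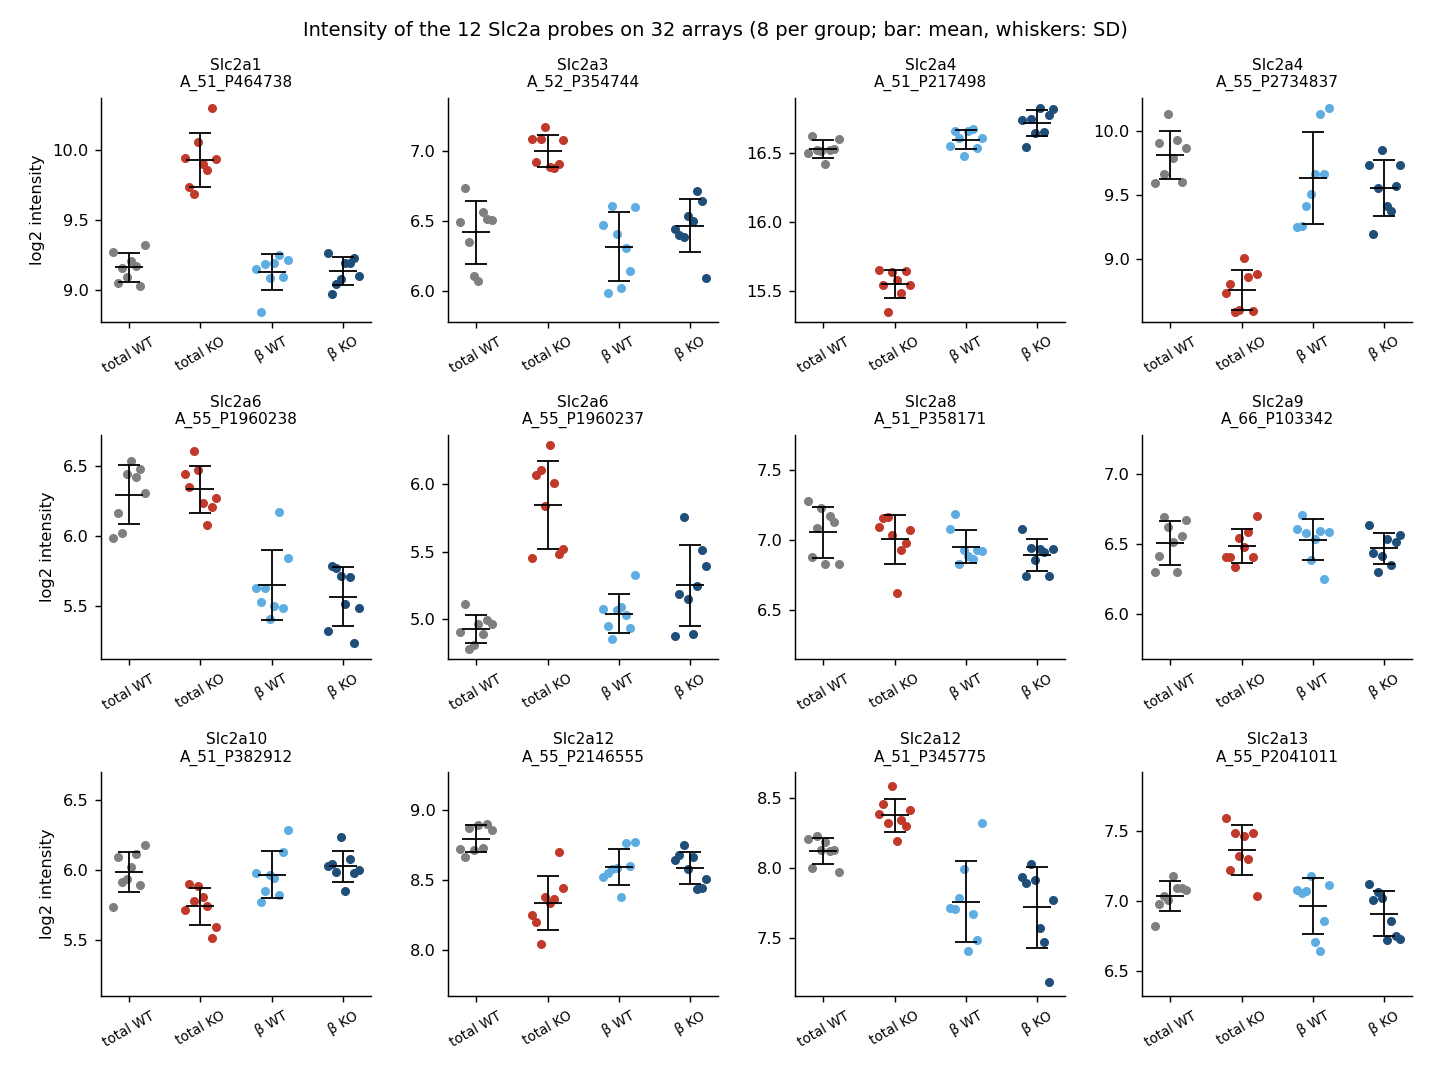
Log2 intensity of each of the 12 Slc2a probes on the 32 arrays by group, with the mean and SD of 8 arrays; each panel has its own axis, since levels of different probes cannot be compared. Total ChREBP KO (red) stands below all other groups for both Slc2a4 probes and above them for Slc2a1 and Slc2a3, while the ChREBPβ KO and WT points overlap in each panel.

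Slc2a6 (GLUT6, held in intracellular membranes and abundant in spleen and leukocytes) gave readings that depended on the probe. A_55_P1960237 (mm9 chr2:26878631-26878690), near the detection limit with 31 of 32 arrays well above background, read 4.78 to 5.12 in total-line WT and 5.45 to 6.28 in total ChREBP KO, with no overlap. Its log2 change was 0.91 (SE 0.11, 1.88-fold, limma adjusted p = 7.59e-08), and between 0.48 and 1.65 under other background corrections, scalings and filters. The brighter probe A_55_P1960238 (chr2:26876891-26876950), further towards the end of the same transcript, read 5.98 to 6.54 in WT and 6.08 to 6.61 in KO, a change of 0.04 (95% interval -0.17 to 0.25, limma adjusted p = 0.8). In ChREBPβ KO the changes were 0.21 (95% interval -0.02 to 0.44) and -0.08 (95% interval -0.29 to 0.13), with limma adjusted p of 0.443 and 0.825. The probes disagreed, so no direction is given for Slc2a6 as a gene.

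The 60-base probe that rose for Slc2a6 is printed here with those of Slc2a8 and Slc2a9, the members with no call in either KO, so that the measured stretches can be placed. Each is written 5′ to 3′ as the scanner output gives it, and each transcript lies on the minus strand in mm9. Whether a probe lies in an exon, an intron or a UTR was not looked up, since no mm9 annotation was used here.
Slc2a6 A_55_P1960237, chr2:26878631-26878690: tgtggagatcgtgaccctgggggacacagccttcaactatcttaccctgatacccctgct
Slc2a8 A_51_P358171, chr2:32831712-32831771: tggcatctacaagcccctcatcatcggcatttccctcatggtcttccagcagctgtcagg
Slc2a9 A_66_P103342, chr5:38808475-38808534: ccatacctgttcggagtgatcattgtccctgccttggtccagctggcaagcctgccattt

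Slc2a12 (GLUT12, a carrier of fat, muscle and heart) also had probes that disagreed. The brighter A_55_P2146555 (mm9 chr10:22424022-22424081) read 8.66 to 8.90 in total-line WT and 8.04 to 8.70 in total ChREBP KO. Its log2 change was -0.46 (SE 0.069, 1.37-fold lower, limma adjusted p = 2.34e-06), and 8 of 8 KO arrays lay below the WT mean, although the ranges overlapped slightly. Probe A_51_P345775 (chr10:22423536-22423595), from base 3611 of its transcript where the other starts at base 4097, read 7.97 to 8.23 in WT and 8.19 to 8.58 in KO, a change of 0.26 (SE 0.11, limma adjusted p = 0.0492). That call is a narrow one: leaving out 1 array at a time ended it in 21 of 32 cases. The ChREBPβ KO changes were -0.01 (95% interval -0.15 to 0.13) and -0.04 (95% interval -0.25 to 0.18).

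Slc2a13, coding for the proton-coupled myo-inositol carrier HMIT, was higher in total ChREBP KO. Probe A_55_P2041011 (mm9 chr15:91098249-91098308) read 6.82 to 7.18 in WT and 7.04 to 7.59 in KO. The log2 change was 0.33 (SE 0.082, limma adjusted p = 0.00141), with 8 of 8 KO arrays above the WT mean and some overlap. Slc2a10, coding for GLUT10, which is linked to arterial tortuosity in humans, was lower: A_51_P382912 (chr2:165344713-165344772) read 5.74 to 6.18 in WT and 5.52 to 5.90 in KO, a change of -0.25 (SE 0.070, limma adjusted p = 0.00499). With each slide as a fixed block the Slc2a10 change was -0.16 (limma adjusted p = 0.0949), and with 75th percentile scaling of the median intensity it was -0.14 (limma adjusted p = 0.0596). In ChREBPβ KO the changes were -0.05 (95% interval -0.22 to 0.11) for Slc2a13 and 0.06 (95% interval -0.08 to 0.20) for Slc2a10.

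Slc2a8 (GLUT8, an intracellular hexose carrier) and Slc2a9 (GLUT9, a urate carrier) were not called in any contrast. Slc2a8 read 6.83 to 7.28 in total-line WT, 6.62 to 7.17 in total ChREBP KO, 6.83 to 7.18 in ChREBPβ-line WT and 6.74 to 7.08 in ChREBPβ KO. Its log2 change was -0.05 (95% interval -0.20 to 0.11) in total ChREBP KO and -0.06 (95% interval -0.21 to 0.09) in ChREBPβ KO. Slc2a9 lay between 6.25 and 6.71 in all 4 groups, with changes of -0.03 (95% interval -0.16 to 0.11) and -0.06 (95% interval -0.20 to 0.08). All 4 groups of each gene overlapped.

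The arrays were washed in 4 batches, each of which held all 4 groups with 1 to 3 arrays of each. A single array made up a KO or WT arm in 3 batches of the ChREBPβ line and in 1 of the total line, so batch values rest on few arrays. Within batches, the 9 probes called in total ChREBP KO kept their direction in 4 of 4. They were chosen by calls on these same arrays, so this is a description and no independent check. The share of all probes that kept 1 direction was not computed. The batch differences ran from -1.01 to -0.92 for Slc2a4 (A_51_P217498), from 0.70 to 0.88 for Slc2a1 and from 0.46 to 0.83 for Slc2a3. They were wider for the dim probes, at 0.54 to 1.24 for Slc2a6 (A_55_P1960237) and -0.53 to -0.07 for Slc2a10. In ChREBPβ KO, 10 of the 12 probes changed sign between batches, and the brighter Slc2a4 probe (0.01 to 0.27) and A_55_P1960237 of Slc2a6 (0.06 to 0.47) did not.

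**Figure D4:**
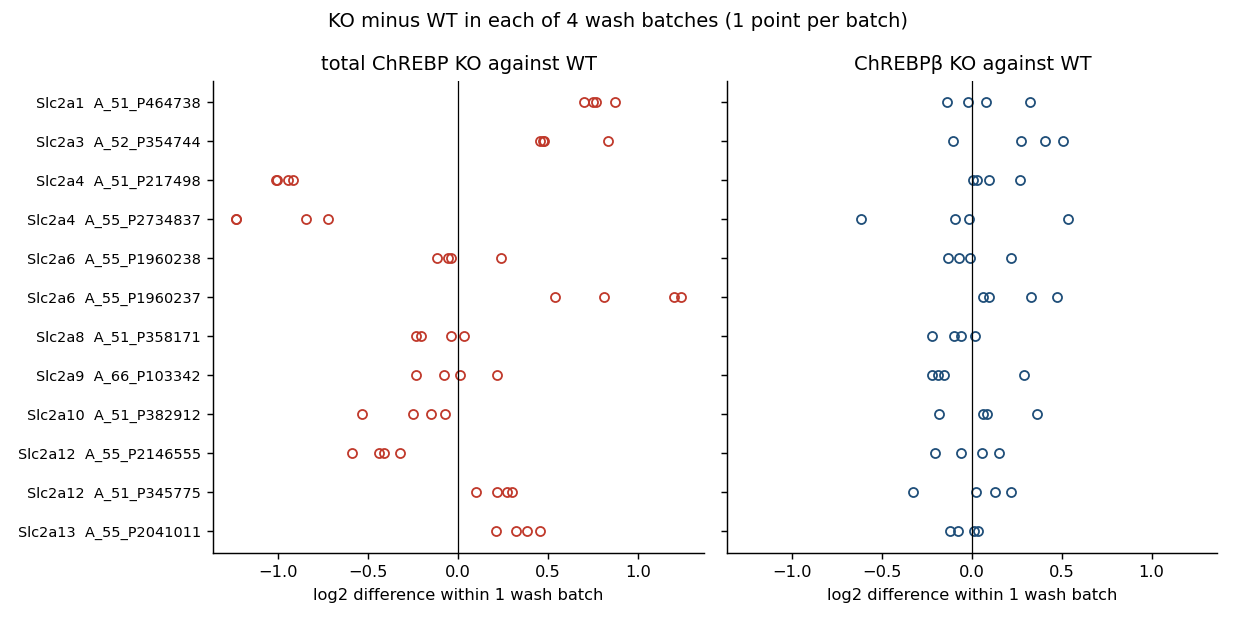
KO minus WT on the log2 scale within each of the 4 wash batches, 1 point per batch and probe (1 to 3 arrays per arm), for total ChREBP KO (left) and ChREBPβ KO (right). The Slc2a4 points lie between -1.23 and -0.72 on the left and between -0.62 and 0.54 on the right.

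Between the WT groups, 3 of the 12 probes were called, all lower in the ChREBPβ line, where 39.2% of all probes were called and 15.0% were lower. Slc2a6 on A_55_P1960238 was lower by 0.65 (5.41 to 6.17 against 5.98 to 6.54; limma adjusted p = 8.31e-06). Slc2a12 was lower on both probes, with a log2 change of -0.20 (limma adjusted p = 0.0214) and of -0.36 (limma adjusted p = 0.00658). With the muscle and liver means as covariates these changes were -0.53, -0.28 and -0.53, and the limma adjusted p were 0.0421, 0.114 and 0.0166. The call of A_55_P2146555 was also lost without ChREBPβ-line WT replicate 5 (log2 change -0.17, limma adjusted p = 0.053). Line and tissue composition moved together here, and their parts cannot be told apart.

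The genes that act around the carriers were read from a list of 38 by role, of which 35 had a probe past the filter (1 per gene, the brightest). In total ChREBP KO 15 of the 35 were called, 9 higher and 6 lower, and over all genes the share called was 44.1% (22.9% higher and 21.1% lower). In ChREBPβ KO it was 3 of 35, all higher, against 2.70% of all genes (1.37% higher). The difference between the KO effects was called for 12 of 35 (25.2% of all genes), and the WT contrast for 13 of 35 (38.9%). Of 5 genes of glucose phosphorylation, 3 were called in total ChREBP KO. Hk2, the insulin-regulated hexokinase of fat and muscle, read 14.88 to 15.14 in WT and 12.73 to 13.21 in KO (log2 change -1.94, SE 0.068, limma adjusted p = 5.54e-21). Hk3, a hexokinase of leukocytes, changed by -0.52, and G6pc3, a glucose-6-phosphatase present in most tissues, by 0.41. In ChREBPβ KO, Hk2 changed by -0.11 (limma adjusted p = 0.504).

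Of 13 genes of GLUT4 vesicle traffic, 4 were higher and 0 lower in total ChREBP KO. Over all genes 44.1% were called in this contrast, 22.9% higher and 21.1% lower. Myo1c, a motor that helps GLUT4 vesicles fuse, rose by 0.69 (14.05 to 14.37 in WT, 14.83 to 15.06 in KO; limma adjusted p = 5.94e-12). Trip10 (0.43) and Rhoq (0.34) encode CIP4 and its partner TC10, and Stxbp3 (0.24) encodes a syntaxin-binding protein of the fusion step. The call of Stxbp3 was lost without the high-liver arrays (limma adjusted p = 0.0683). The Rab regulators Tbc1d4 and Tbc1d1, the cargo aminopeptidase gene Lnpep, and Sort1 were not called there, with changes from -0.10 to 0.11. In ChREBPβ KO, Myo1c (0.20, limma adjusted p = 0.0402) and Lnpep (0.17, limma adjusted p = 0.0372) were called higher. Both calls were lost with either 75th percentile scaling, without a filter on dim probes, with the wash batch or slide as a block, and with only the groups compared.

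Of the genes for arrestins that send GLUT proteins into endocytosis, Arrdc4 was higher in ChREBPβ KO by 0.58 (9.67 to 10.67 in WT, 10.41 to 10.86 in KO; SE 0.12, limma adjusted p = 0.00394; 0.109 with the slide as a block). In total ChREBP KO it changed by 0.26 (limma adjusted p = 0.0764), and the difference between these effects, 0.32, had a limma adjusted p of 0.168. Txnip, a well-known ChREBP target, changed by -0.36 in total ChREBP KO and 0.36 in ChREBPβ KO. Neither was called, but their difference of 0.72 was (limma adjusted p = 0.0376).

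Of 5 genes tied to Slc2a4 transcription, 4 were called in total ChREBP KO, where 44.1% of all genes were called. Klf15, a factor that raises Slc2a4 transcription in adipocytes, was higher without overlap (9.85 to 10.90 in WT with a median of 10.20, 11.20 to 13.04 in KO with a median of 11.73; SE of the log2 change 0.23, limma adjusted p = 2.45e-06). Nr1h3 (LXRα) and Mef2a were higher by 0.41 and 0.31, whereas Mef2d was lower, with a log2 change of -0.78 (limma adjusted p = 3.53e-10). In ChREBPβ KO 0 of the 5 were called by limma, and 0 had an unadjusted p under 0.05.

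Of 10 further sugar carriers, 4 were called in total ChREBP KO, where 44.1% of all genes were called. Slc2a5, the fructose carrier GLUT5, read 13.57 to 14.18 in WT and 4.39 to 5.25 in KO, where 6 of 8 arrays were still well above background, a measured log2 change of -8.99 whose size is limited by the detection limit in KO. It stayed at 13.92 to 14.53 and 13.89 to 14.48 in WT and KO of the ChREBPβ line. Slc37a4, the glucose-6-phosphate translocator of the endoplasmic reticulum, changed by -1.70, Slc45a4 by -0.57 and Slc5a4a by 0.39. Slc2a2, the GLUT2 gene of liver, changed by 0.39 (limma adjusted p = 0.113).

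**Figure D5:**
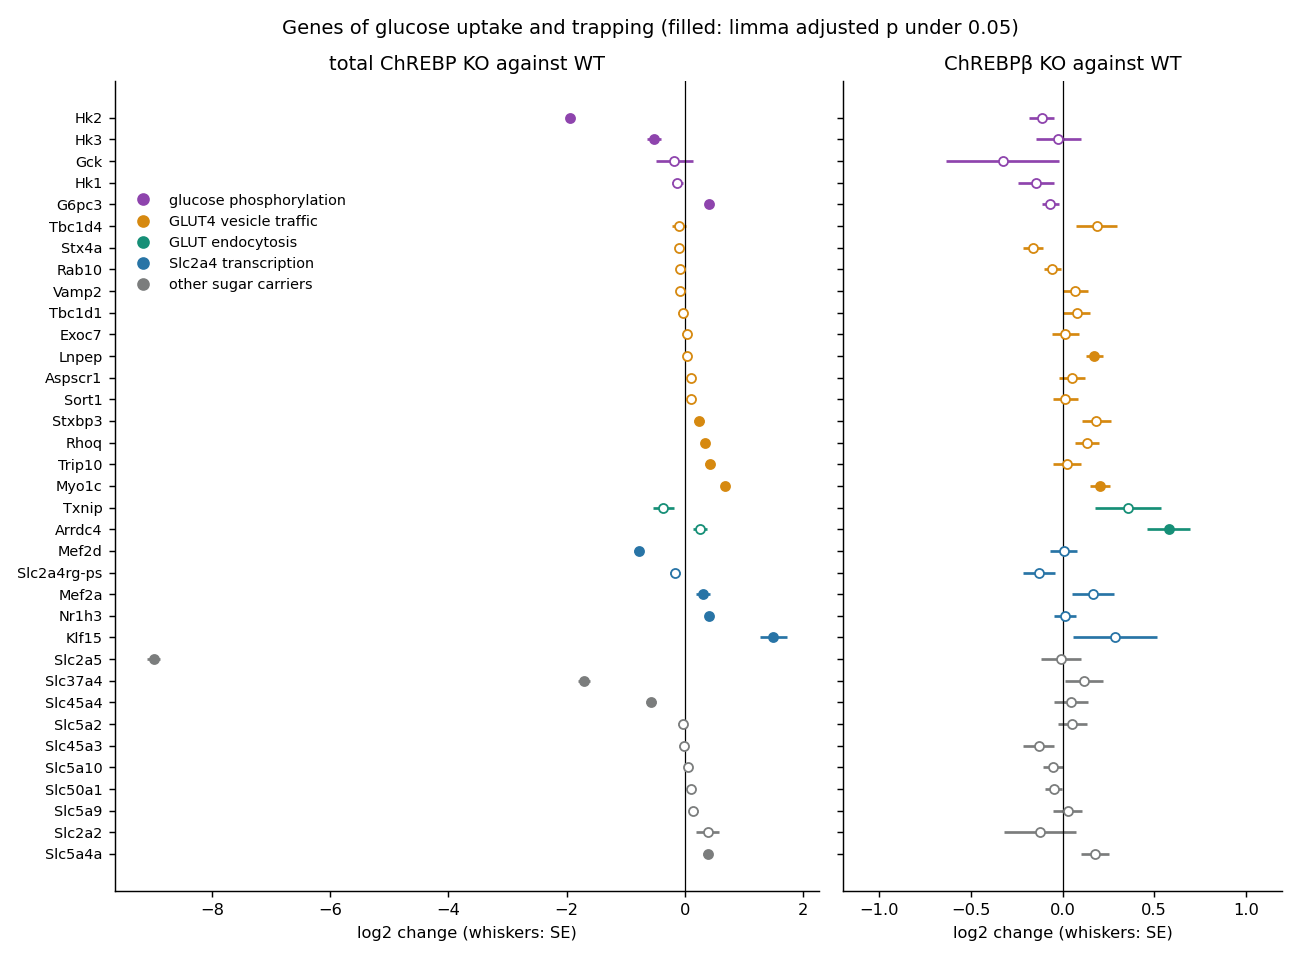
Log2 change and SE of 35 genes of glucose uptake and trapping in total ChREBP KO (left) and ChREBPβ KO (right), coloured by role, with filled points past a limma adjusted p of 0.05; the axes differ in range. On the left 15 genes are filled, with Slc2a5 lowest at -8.99 and Klf15 highest, and on the right 3 are filled: Lnpep, Myo1c and Arrdc4.

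RefSeq promoters (GRCm38.p6, from 250 bases before to 50 after a start site) were given for 7 of the 9 members, all but Slc2a3 and Slc2a4. Both strands were searched. The E-box CACGTG was in 0 of the 7, and in 7.15% of all 32851 promoters. A carbohydrate response element, in the form of a pair of E-box elements on either side of a fixed spacer, was in 0 of the 7 and in 0.0457% of all. The GC box GGGCGG, which binds Sp1, was in 4 of the 7 (Slc2a1, Slc2a6, Slc2a10 and Slc2a13), and in 35.7% of all promoters. The stretch before the Slc2a1 start is shown, as the called member with the largest change on a brightest probe among those with a promoter. Capitals mark its GC boxes, which lie on the other strand and so read CCGCCC, at -45 to -40 and -20 to -15 from the start.
Slc2a1, GRCm38.p6 chr4:119108495-119108744, plus strand: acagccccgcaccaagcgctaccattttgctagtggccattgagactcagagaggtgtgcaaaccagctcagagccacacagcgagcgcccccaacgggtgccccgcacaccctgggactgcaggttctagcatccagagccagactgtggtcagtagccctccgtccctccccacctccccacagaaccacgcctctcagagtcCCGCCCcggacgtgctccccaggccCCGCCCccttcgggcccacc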

How the data were processed

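Total RNA of brown adipose tissue was labelled with Cy3 and hybridised by the authors to Agilent SurePrint G3 mouse arrays (8 arrays per group, 15 slides, 4 wash batches); Feature Extraction 10.10.1.1, per the labels, wrote the spot intensities. The deposited log2 table was made by the authors with a detection filter, quantile normalization and a median over repeated spots of a probe. Intensity values deposited per spot were the start here. Of 59305 spots, 39985 passed the scanner flags for detection on 26 or more arrays, or on 6 or more of 1 group. Their median intensities were log2 transformed and quantile normalized, and spots of a probe were replaced by their median (37306 probes), within a mean absolute difference of 0.00298 of the deposited table. Quantile normalization can compress differences of very bright probes. No member spot was saturated. Tests were two-sided, with limma 3.58.1 (R 4.3.3) over all 32 arrays, 4 group means and Benjamini-Hochberg adjustment over all probes. A gene with several probes was represented by the brightest over all arrays. The labels do not tie arrays to mice. A legend of the study gives 6 to 8 mice per group for its arrays, and another gives 8 per group for total ChREBP KO. The p-values measure the spread between these samples, whose number limits the precision. On simulated data with 8 arrays against 8, in the total ChREBP KO contrast over 37306 probes, 84 of 100 changes of 0.5 and 96 of 100 of 1 (log2) were called. The simulated noise was normal and independent between probes, and no other probe changed. In the data 43.2% of probes were called in this contrast, so these rates need not hold there. Deviations of same-numbered KO and WT samples correlated at -0.30 to 0.08 in the total line (0 of 8 pairs above 0.1) and -0.20 to 0.53 in the ChREBPβ line (6 of 8), so the numbers were not taken as pairs. Every member was named; from the list, at most 4 called genes per role and KO contrast with the largest change, plus examples not called, chosen after their values were seen. Members, lists and motifs were chosen with earlier results of these data known. Alternatives were another background correction, scaling and filter, the deposited table, blocks, array weights, covariates and leaving out arrays. A gene among those most like Slc2a4 is not reported here.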

Additional observations from a re-analysis of the deposited data

Results flagged for a closer look

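The KO effects of the lines differed by a direct test for 8 member probes (ChREBPβ KO effect minus total ChREBP KO effect, log2 scale, limma). The difference was 1.097 (adjusted p = 3.43e-14) and 0.97 (adjusted p = 4.29e-05) for Slc2a4 on A_51_P217498 and A_55_P2734837, 0.45 (adjusted p = 0.000883) for Slc2a12 on A_55_P2146555, and 0.30 (adjusted p = 0.0239) for Slc2a10. It was -0.76 (adjusted p = 3.80e-07) for Slc2a1, -0.70 (adjusted p = 0.00147) for Slc2a6 on A_55_P1960237, -0.44 (adjusted p = 0.0199) for Slc2a3 and -0.38 (adjusted p = 0.0144) for Slc2a13. In each case the total ChREBP KO effect was called and the ChREBPβ KO effect was not. The 10 muscle genes were lower in ChREBPβ-line WT than in total-line WT. The 8 liver genes were higher there by 0.86 to 2.44, but only 1 was called. Their mean varied widely between arrays, from 6.47 to 11.64 in total-line WT and from 6.58 to 13.54 in ChREBPβ-line WT. With the muscle and liver means as covariates, all 8 differences between the KO effects were called, for example 1.09 for Slc2a4 (A_51_P217498) and -0.73 for Slc2a1. The 8 probes had been chosen by their calls on these same arrays. Over all probes, 9496 of 37306 were called in the difference with these covariates. Without the high-liver arrays the differences of Slc2a6, Slc2a10 and Slc2a13 were not called. The part of tissue composition in these differences was not tested.

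Single arrays stood apart in 2 of 48 sets of 8 arrays, where chance alone flags about 1 in 20. Slc2a1 read 8.85 on ChREBPβ-line WT replicate 2, with a gap to the next array of 0.593 of the group's range; without that array the ChREBPβ KO change was -0.03. Slc2a8 read 6.62 on total ChREBP KO replicate 5, with a gap of 0.561 of the range.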

How the results depend on the processing

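No call of a member probe changed sign. Over 676 values of member changes from settings other than leaving out 1 array, 14 lost a call and 1 gained it, and over 1536 values with 1 array left out, 22 lost it; 33 and 34 values that were not called in the first place crossed 0. Those that lost it were Slc2a12 A_51_P345775 in total ChREBP KO (0.27, 0.22, 0.26 and 0.21 with the processed signal, normexp, no filter and the slide block), Slc2a10 (-0.14 with 75th percentile scaling of median intensity, -0.16 with the slide block) and differences or WT contrasts. The cause was not tested.

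Of the 12 probes, 9 were called in total ChREBP KO, 8 in the difference and 3 between the WT groups. Requiring spots well above background on all 32 arrays, which keeps 11 of the 12 member probes, left 8, 7 and 3. Requiring them also to be found and positive on all arrays (added after seeing the data) keeps 5 of the 12 and left 4, 4 and 1, and a change of at least 1.5-fold left 4, 4 and 1. An adjusted p under 0.01 left 5 in the difference. Leaving out 1 array gave 8 to 9, 8 to 8 and 2 to 3, and 0 to 0 in ChREBPβ KO, where every setting run gave 0. With 1 probe per gene, the brightest, the total ChREBP KO contrast called 6 of 9 members, and 44.1% of all genes. Slc2a12 is among the 6, though its probes were called in opposite directions (-0.46 on the brighter and 0.26 on the other).

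Without the arrays whose liver mean was 8 or more (chosen after seeing the data; 4, 6, 2 and 3 arrays left in total-line WT and KO and ChREBPβ-line WT and KO), 9 probes were called in total ChREBP KO, 5 in the difference (Slc2a6, Slc2a10 and Slc2a13 lost it) and 0 in ChREBPβ KO; fewer arrays enter this fit.

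For the listed genes, a 1.5-fold limit left 6 of 15 in total ChREBP KO, 0 of 3 in ChREBPβ KO, 7 of 12 in the difference and 0 of 13 between WT groups. The 3 ChREBPβ KO calls were 1 with the processed signal, 75th percentile scaling, no filter, the wash batch block, only the groups compared or an adjusted p under 0.01, and 0 with the slide block or without the high-liver arrays. They ranged from 1 to 4 with 1 array left out, at 1 without ChREBPβ-line WT replicate 1, 3 or 6 or KO replicate 4, 6 or 8. Without the high-liver arrays 6 were called in the difference and 7 between WT groups, where the covariates also left 7. Leaving out 1 array gave 14 to 17, 10 to 13 and 11 to 14 in the other contrasts.

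Over all probes, 953 were called in ChREBPβ KO, against 476 with only its own groups, 148 with the slide block, 44 without the high-liver arrays, and 676 to 1554 with 1 array left out (1554 without ChREBPβ-line WT replicate 5). In total ChREBP KO it was 16128, and 10068 to 17254 over settings other than leaving out 1 array, lowest with spots found, positive and well above background on all arrays, where 19927 probes were tested. The difference gave 8997, and 3108 without the high-liver arrays; the WT contrast gave 14626, and 5041 with the covariates. With the replicate block, which the numbers do not justify as pairing, member calls were 9, 0, 8 and 3, and listed calls 15, 2, 12 and 13; in 0 of 8 pairs per line did a sample correlate best with its own number.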

Other observations

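The genes whose probes ran most like the 4 members with the largest called changes on their brightest probe were read from Pearson correlations over the 32 arrays, as a description, since arrays of 1 group share their level. Among those most like Slc2a4 were Atp4b (r = 0.979) and Slc2a5 (r = 0.977), whose changes in total ChREBP KO were -5.90 and -8.99 on the log2 scale. Slc2a1 ran most like Nnmt (r = 0.945), which changed by 1.95, Cox6a1 (r = 0.937) and Crem (r = 0.918), which changed by 1.04. The Cox6a1 probe is among the brightest, and quantile normalization gave it the same value in 3 groups. Slc2a3 ran most like Dcst2 (r = 0.852), Abhd15 (r = 0.848) and Tmeff1 (r = 0.843), and Slc2a12 most like Snx10 (r = 0.885), Ppp4r2 (r = 0.866) and Impad1 (r = 0.854). In ChREBPβ KO the genes named here changed by -0.11 to 0.21.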
